A study of Mus musculus with 4 samples.

Results

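Expression of 9 genes of regulated exocytosis was followed in the transcriptome of melanoma tumor repopulating cells (TRCs): *Snap25*, *Stx1a*, *Vamp2*, *Unc13a*, *Sv2a*, *Syt11*, *Syp*, *Rab3a* and *Rab27a*. They were chosen by symbol as SNAREs, a priming factor, vesicle proteins and Rab GTPases, and all 9 were found among the 39179 genes of the count data. B16F1 is a mouse melanoma cell line. The TRC libraries came from cells that had grown as spheroids in soft fibrin gel, and the control libraries from the parental B16F1 cells, which the study describes as grown on rigid dishes. There were 4 libraries of polyA RNA, 2 per group, numbered 1 and 3 in each. The labels name no genotype or agent that differs between the groups, and both derive from 1 cell line. The TRCs differ from the control cells in survival of the gel, in dimension and in stiffness of the culture at once, and these cannot be told apart.

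Regulated exocytosis is the release of stored vesicles on a signal. Syntaxin and SNAP proteins on the plasma membrane and VAMP proteins on the vesicle zip into the SNARE complex that drives fusion, after priming by UNC13 proteins. Rab GTPases of the RAB3 and RAB27 groups bring vesicles to the membrane, and synaptotagmins, SV2 proteins and synaptophysin sit in the vesicle membrane. The machinery is best known from nerve terminals. Pigment cells use a part of it: RAB27A tethers melanosomes, through melanophilin, to the motor myosin Va.

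Of the 9 genes, 4 rose in TRCs. *Unc13a*, which encodes a vesicle priming factor, went from 0.233 ± 0.210 to 10.7 ± 8.66 CPM (counts scaled to library size, mean ± SD, n = 2 libraries). *Sv2a*, a synaptic vesicle glycoprotein gene, rose 2.43-fold, *Rab3a*, a vesicle GTPase gene, 2.31-fold, and *Syt11*, a synaptotagmin gene, 1.68-fold. Of these calls, that of *Unc13a* held in all 4 fits with 1 library left out, while 1 member was called without control replicate 3 or without TRC replicate 1, and 2 without TRC replicate 3. *Stx1a*, *Vamp2* and *Rab27a* did not pass the test. *Snap25* had 0 counts in every library and *Syp* reached 1 CPM in 1 library, so neither was tested. Calls were made at a false discovery rate (FDR) under 0.05 in edgeR's exact test, adjusted over 11483 genes with the Benjamini-Hochberg method. In that test 8.81% of all genes were called higher in TRCs, 7.05% lower and 15.9% in either direction, against 4 of the 7 members tested, all higher. The members were chosen with earlier results of these data known, and *Unc13a* passed the filter on low counts only through the TRC libraries, where it was high, so the counts over tested members here are descriptions. None of the tested members was called lower or had an unadjusted p under 0.05 in that direction in edgeR's exact test, in its quasi-likelihood test or in DESeq2. In 6 of the 7 tested members the TRC values exceeded both control values without overlap, which held for 30.2% of all genes tested. The reverse order was seen in 0 of the 7 and in 30.4% of all genes tested. *Syp*, which was not tested, did show that order. It was at 1.06 and 0.793 CPM in control replicates 1 and 3 and at 0.601 and 0.432 CPM in TRC replicates 1 and 3.

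**Figure D1:**
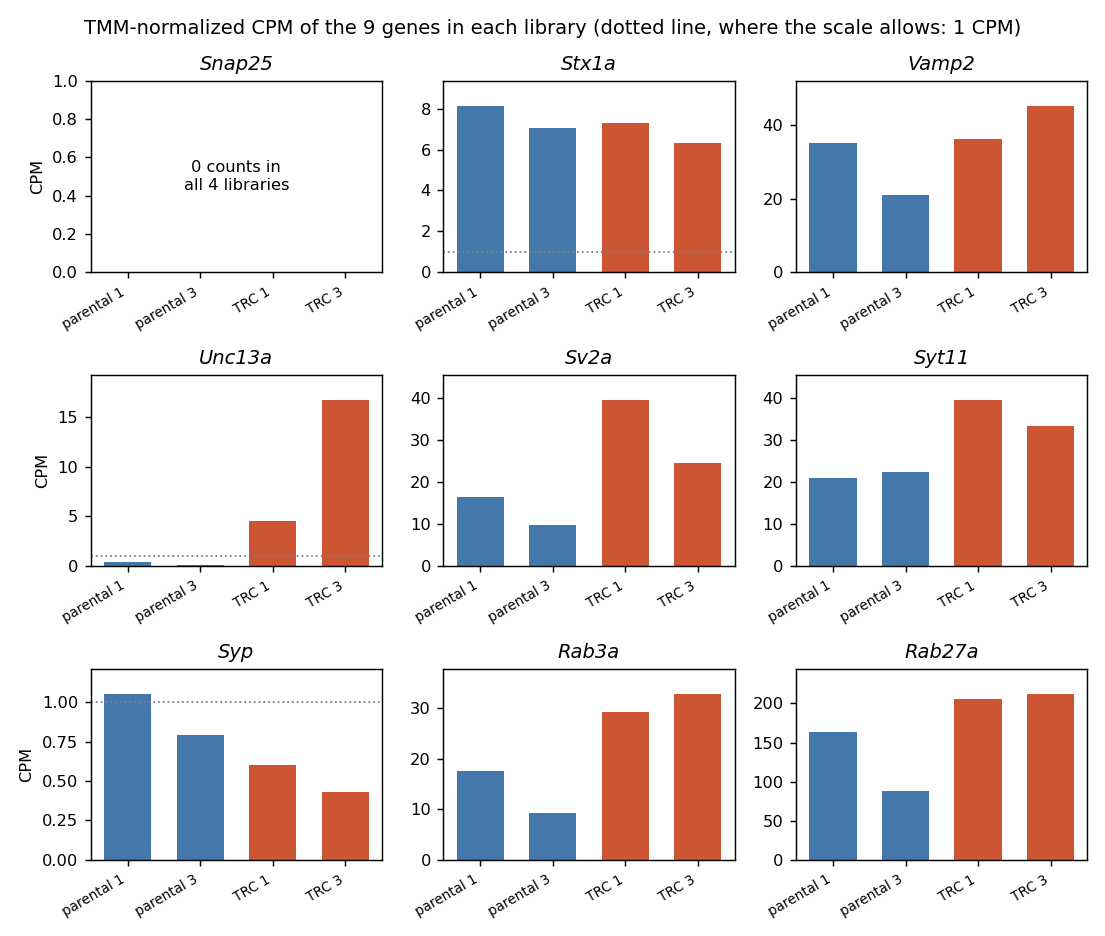
Bars show the TMM-normalized CPM (vertical axis, from 0, with its own scale in each panel) of the 9 genes in each of the 2 parental libraries (blue) and the 2 TRC libraries (red), with a dotted line at 1 CPM where the scale allows. *Unc13a* lies below 1 CPM in both parental libraries and at 4.54 and 16.8 CPM in the TRC libraries, while the bars of *Stx1a* overlap between the groups.

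Between 35948295 and 43511554 counts fell on genes per library. At these depths 3 counts, taken as the smallest detectable number, correspond to between 0.0674 and 0.0849 CPM, a floor that covers counting error only. The pigment cell markers *Mitf*, *Sox10*, *Pmel*, *Tyr*, *Tyrp1*, *Dct* and *Mlana* were present in all 4 libraries and summed to between 15700 and 26640 CPM, with 1 of the 7 called higher in TRCs. Of 10 neuron markers, 5 had 0 counts in all 4 libraries, including *Nefl*, *Elavl4* and *Stmn2*. The sum of all 10 ran from 88.3 to 119 CPM in control cells and from 155 to 197 CPM in TRCs. Nearly all of it came from *Tubb3*, a tubulin gene, and *Map2*. *Tubb3* rose 0.92 on the log2 scale (edgeR exact test, FDR = 0.00489). *Map2* was lower in both TRC libraries than in both controls, with a log2 fold change of −0.40 (edgeR exact test, FDR = 0.459). Their part in the members' values was not tested. The 7 leukocyte markers summed to at most 0.854 CPM, and the 8 fibroblast and endothelial markers to 11.5 and 9.99 CPM in control replicates 1 and 3 and 5.69 and 3.12 CPM in TRC replicates 1 and 3. Among the latter *Col1a2*, a collagen gene, fell by 2.52 on the log2 scale (edgeR exact test, FDR = 4.15e-06), and the part of this in the members' values was not tested. In bulk RNA, fewer cells expressing a gene and less RNA of it per cell cannot be told apart. The labels do not say that the libraries of a group came from separate cultures, so the spread between them may be technical. The smallest two-sided p of an exact permutation test of 2 against 2 libraries is 0.333, so the p-values printed for genes come from models that share information on spread across all genes.

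Start regions are shown for *Unc13a* and *Rab3a*, which both passed the test, as examples of a stretch with and a stretch without the letters searched for. The choice of the *Rab3a* window decides this, since its other window holds them. RefSeq windows (GRCm38.p6) span 250 bases before to 50 bases after a start site and were found for 7 of the 9 members, *Snap25* and *Vamp2* being the others. Only bases before the annotated first exon are printed. Capitals mark ACGTG or GCGTG on either strand, the core letters of the element bound by hypoxia-inducible factors. The stretches lie at chr8:71671758-71672007 (minus strand) for *Unc13a* and chr8:70754453-70754678 (plus strand) for *Rab3a*.
Unc13a: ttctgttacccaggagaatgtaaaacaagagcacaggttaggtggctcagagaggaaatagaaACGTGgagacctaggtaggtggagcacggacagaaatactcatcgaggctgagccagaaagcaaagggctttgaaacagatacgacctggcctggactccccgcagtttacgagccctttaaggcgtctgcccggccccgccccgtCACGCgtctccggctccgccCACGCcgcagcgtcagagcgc
Rab3a: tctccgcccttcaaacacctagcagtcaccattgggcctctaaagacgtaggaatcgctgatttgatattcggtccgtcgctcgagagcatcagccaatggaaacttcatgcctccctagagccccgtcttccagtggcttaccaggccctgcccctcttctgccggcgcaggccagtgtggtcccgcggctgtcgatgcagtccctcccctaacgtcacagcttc

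The whole *Unc13a* window holds ACGTG 1 time and GCGTG 2 times, at −187, −41 and −21 from the RefSeq start. The *Sv2a* window holds GCGTG 1 time, at −54, and the *Rab3a* window whose upstream bases are shown holds neither. A second RefSeq window of *Rab3a* holds GCGTG 3 times, at −21, 3 and 6. The matches at 3 and 6 are both strands of 1 overlapping site after the start. *Stx1a*, which did not pass the test, holds GCGTG 2 times and *Syt11* holds neither. *Rab27a*, which did not pass the test either, holds GCGTG 1 time in one window and ACGTG on both strands of 1 overlapping site in another, and *Syp*, which was not tested, holds GCGTG 1 time. Of all 32851 RefSeq windows of 300 bases, 19.6% hold ACGTG, 32.4% hold GCGTG and 43.8% hold at least one of them. A match is a description of the window only.

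Among the SNARE genes, *Snap25* (ENSMUSG00000027273, chromosome 2 from 136713453 to 136782428, GRCm38), which encodes the plasma membrane SNARE of nerve terminals, had 0 counts in each of the 4 libraries. This allows up to 3 counts, or 0.0674 to 0.0849 CPM, per library. Its paralog *Snap23*, the form of most other tissues, was at 34.3 and 40.6 CPM in control replicates 1 and 3 and at 45.0 and 39.5 CPM in TRC replicates 1 and 3. The groups overlapped for *Snap23*, with a log2 fold change of 0.18 (SE 0.23 from DESeq2, edgeR FDR = 0.688). *Stx1a* (ENSMUSG00000007207, chromosome 5 from 135023482 to 135051100), the syntaxin of nerve terminals, was at 8.13 and 7.05 CPM in the controls and 7.30 and 6.34 CPM in the TRCs. These groups overlapped too. The log2 fold change was −0.15 in DESeq2 with a 95% interval from −0.81 to 0.50, and the edgeR FDR was 0.847. *Vamp2* (ENSMUSG00000020894, chromosome 11 from 69088490 to 69092384), the vesicle SNARE of nerve terminals, was at 35.2 and 21.04 CPM in the controls and 36.2 and 45.3 CPM in the TRCs. Control replicate 1 was close to TRC replicate 1, and control replicate 3 was the lowest. The log2 fold change of *Vamp2* in DESeq2 was 0.54 with a 95% interval from −0.05 to 1.13 (edgeR FDR = 0.215). Without control replicate 1 it was called, at 0.95 in the exact test with an FDR of 0.0279, and without control replicate 3 it was 0.21 with an FDR of 0.812.

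The priming gene *Unc13a* (ENSMUSG00000034799, minus strand, chromosome 8 from 71624417 to 71671757) was counted 17 and 3 times in control replicates 1 and 3, against 189 and 699 counts in TRC replicates 1 and 3. These are 0.382 and 0.0849 CPM in the controls and 4.54 and 16.8 CPM in the TRCs. Both control libraries were below 1 CPM, control replicate 3 was at the floor of 3 counts, and TRC replicate 3 was far above TRC replicate 1. On the log2 scale the fold change was 5.46 (SE 0.73 from DESeq2, edgeR exact test FDR = 5.01e-10). The ratio of the summed counts, scaled to library size, was 42.6, with an exact 95% binomial interval from 27.4 to 70.0 that covers counting error only. Leaving out 1 library moved the log2 value between 4.23, without TRC replicate 3, and 6.91, without control replicate 1. It was 4.79 without control replicate 3 and 6.09 without TRC replicate 1, and all 4 fits called the gene. The FDR was 0.0150 in the quasi-likelihood test. A filter of 1 CPM in at least 3 libraries removes the gene. *Colgalt1* on the other strand shares 495 of its 12623 exon bases, and was at 66.8 to 79.6 CPM in the controls and 87.1 to 90.4 CPM in the TRCs (edgeR FDR = 0.444). The log2 fold change of *Colgalt1* was 0.28, against 5.46 for *Unc13a*. The strand setting of the counting is not given in the sources used here, so how reads in those shared bases were assigned is not known. The part of such reads in the *Unc13a* counts was not tested.

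Of the vesicle proteins, *Sv2a* (ENSMUSG00000038486, chromosome 3 from 96181151 to 96195521) was at 16.5 and 9.88 CPM in control replicates 1 and 3 and at 39.6 and 24.5 CPM in TRC replicates 1 and 3. Both TRC libraries lay above both controls, and replicate 1 was the higher one in each group. The log2 fold change was 1.28 (SE 0.35 from DESeq2, edgeR exact test FDR = 0.00416). The call was lost without control replicate 3 (0.96, FDR = 0.116), without TRC replicate 1 (0.88, FDR = 0.262) and in the quasi-likelihood test (FDR = 0.0501). *Syt11* (ENSMUSG00000068923, chromosome 3 from 88744700 to 88775164) encodes a synaptotagmin that does not bind calcium. It was at 20.9 and 22.5 CPM in the controls and 39.6 and 33.4 CPM in the TRCs. The control libraries were close to each other and both TRC libraries lay above them. The log2 fold change was 0.75 (SE 0.24 from DESeq2, edgeR exact test FDR = 0.0297), but the gene was called in none of the 4 fits with 1 library left out. The FDR there was 0.126 and 0.124 without control replicates 1 and 3, and 0.342 and 0.0913 without TRC replicates 1 and 3. It was 0.0563 in the quasi-likelihood test and 0.0778 with no filter on low counts.

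*Syp* (ENSMUSG00000031144, chromosome X from 7638471 to 7653256) encodes synaptophysin, a major membrane protein of small synaptic vesicles. It had 47 and 28 counts in the controls and 25 and 18 counts in the TRCs, or 1.06, 0.793, 0.601 and 0.432 CPM. Only control replicate 1 reached 1 CPM, so the gene was not tested in the main comparison. The ratio of TRC to control counts was 0.550 with an exact 95% binomial interval from 0.369 to 0.810, for counting error only. When no filter was applied, its log2 fold change was −0.87 with an FDR of 0.421 in the exact test. *Snap25* and *Syp* were thus below 1 CPM in both TRC libraries, and *Unc13a* and *Snap25* in both control libraries.

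Among the Rab GTPases, *Rab3a* (ENSMUSG00000031840, chromosome 8 from 70754679 to 70758677), the RAB3 form of synaptic vesicles, was at 17.6 and 9.29 CPM in control replicates 1 and 3. It was at 29.2 and 32.9 CPM in TRC replicates 1 and 3, which were close to each other and above both controls. On the log2 scale the change was 1.21 (SE 0.34 from DESeq2, edgeR exact test FDR = 0.00609). The call was lost without control replicate 3 (0.82, FDR = 0.129), without TRC replicate 1 (1.28, FDR = 0.0591) and without TRC replicate 3 (1.12, FDR = 0.118). It was also lost in the quasi-likelihood test (FDR = 0.0515). *Rab27a* (ENSMUSG00000032202, chromosome 9 from 73044854 to 73097629), which carries melanosomes in pigment cells, was the most abundant member on the length-scaled measure. It was at 163 and 87.5 CPM in the controls and 205 and 213 CPM in the TRCs. The TRC libraries lay above both controls, and the gap to control replicate 1 was smaller than the gap between the controls. The log2 fold change was 0.74 (SE 0.29 from DESeq2, edgeR exact test FDR = 0.0601). Without control replicate 1 it was 1.25 with an FDR of 0.000487, and without control replicate 3 it was 0.35 with an FDR of 0.576.

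**Figure D2:**
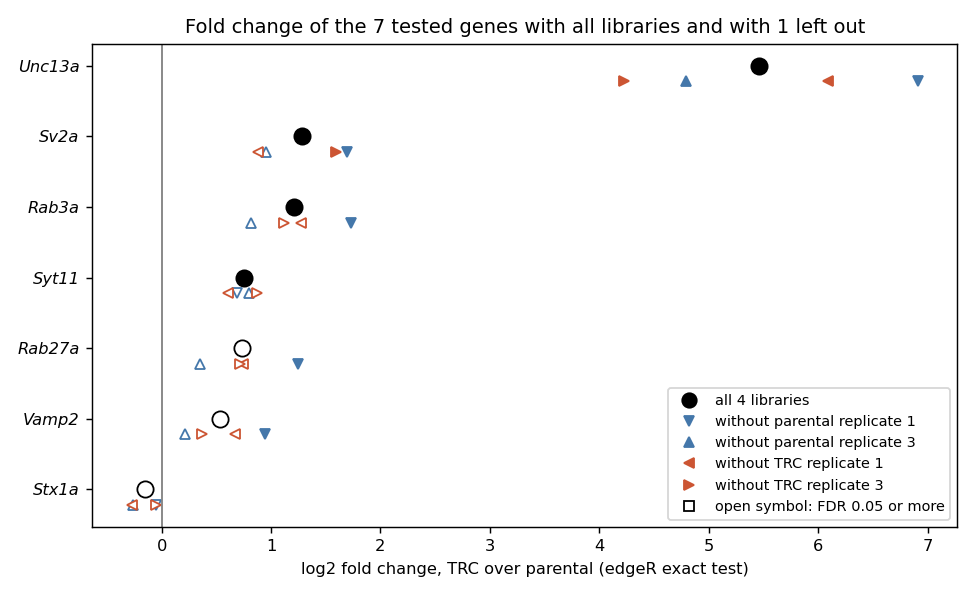
Log2 fold changes (horizontal axis, TRC over parental) of the 7 tested members with all 4 libraries (circles) and with each library left out in turn (triangles), where open symbols have an FDR of 0.05 or more in the exact test. *Unc13a* stays between 4.23 and 6.91 with filled symbols, and for *Sv2a*, *Rab3a*, *Rab27a* and *Vamp2* the highest value is the fit without parental replicate 1.

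The control libraries differed from each other in these genes. Of the 7 tested members, 6 were higher in control replicate 1 than in control replicate 3, as were 5683 of all 11483 genes tested. The median log2 difference of the members was 0.71, on log2 of CPM plus 0.5, against −0.005 over all genes tested. The exception among the members was *Syt11*. Between the TRC libraries the median log2 difference of the members, replicate 1 minus replicate 3, was −0.05, with 3 of the 7 above 0. Single members differed there in both directions, from −1.78 for *Unc13a* to 0.68 for *Sv2a*. Of the 7 pigment cell markers, 6 were higher in control replicate 1, with a median log2 difference of 0.39. The largest differences were those of *Tyr*, the tyrosinase gene, and *Mitf*, the lineage factor gene. *Tyr* was at 144 CPM in control replicate 1 and 46.2 CPM in control replicate 3, and *Mitf* at 586 and 357 CPM. *Mlana* went the other way, at 804 and 1243 CPM. The part of these differences in the members' fold changes was not tested. Without control replicate 3, 1 member was called higher in place of 4, with 881 calls among all genes, and without control replicate 1, 5 members were called, with 1946. Without TRC replicates 1 and 3, 1 and 2 members were called, with 783 and 808 calls among all genes.

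The level of each member was then set beside that of its paralogs as CPM per kilobase of exon, since levels of different genes compare only per length. In this measure *Rab27a* led the members with 32.3 in control cells and 53.9 in TRCs, followed in TRCs by *Rab3a* at 13.9, *Vamp2* at 10.7, *Syt11* at 7.01 and *Sv2a* at 6.92. The values of *Syt11* and *Sv2a* overlapped between libraries. *Stx1a* was at 2.56, *Unc13a* at 0.845 and *Syp* at 0.0991. In control cells *Unc13a*, at 0.0185, was instead below *Syp*, at 0.177.

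Relative to its paralogs *Unc13b* and *Unc13d*, the form that acts in granule release of blood cells, *Unc13a* held 4.41% and 1.25% of the family's length-scaled level in control replicates 1 and 3. It held 29.6% and 57.3% in TRC replicates 1 and 3. *Unc13b* was at 9.03 and 6.88 CPM in the controls and 12.95 and 14.8 CPM in the TRCs (edgeR FDR = 0.123), and *Unc13d* had an FDR of 0.707. The other families kept the same leading form in all 4 libraries. *Sv2a* held 91.2% to 98.3% of the SV2 family, with *Sv2c* at 0 or 1 count per library, and *Rab27a* at least 99.9% of its pair with *Rab27b*. *Rab3a* held 61.0% and 51.5% in the controls and 63.5% and 68.8% in the TRCs, next to *Rab3d* and *Rab3b*.

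Among the paralogs compared here, the SNARE and synaptophysin members were not the leading forms. Other SNAREs outside these pairs were higher still, such as *Vamp8*, an endosomal form named after its values were seen, at 34.5 CPM per kilobase in control cells and 48.8 in TRCs. *Stx1a* was at 2.85 CPM per kilobase in control cells and 2.56 in TRCs, against 17.1 and 21.6 for *Stx4a*, the syntaxin of general plasma membrane traffic. *Vamp2* held 34.5%, 18.0%, 33.3% and 35.5% next to *Vamp1* and *Vamp3* in control replicates 1 and 3 and TRC replicates 1 and 3, and *Vamp3* held the largest share of the 3. *Syp* held at most 1.24% next to *Sypl*, a related vesicle protein gene, and *Synpr*, which had 0 counts. *Syt11* held at most 2.86% beside *Syt4*, its closest paralog, which was at 197 CPM per kilobase in control cells and 259 in TRCs without passing the test (edgeR FDR = 0.320). *Syt4* and *Sypl* were therefore the abundant forms in both groups. Sums over a family take all exons of a gene as its length, so isoforms shift these shares.

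**Figure D3:**
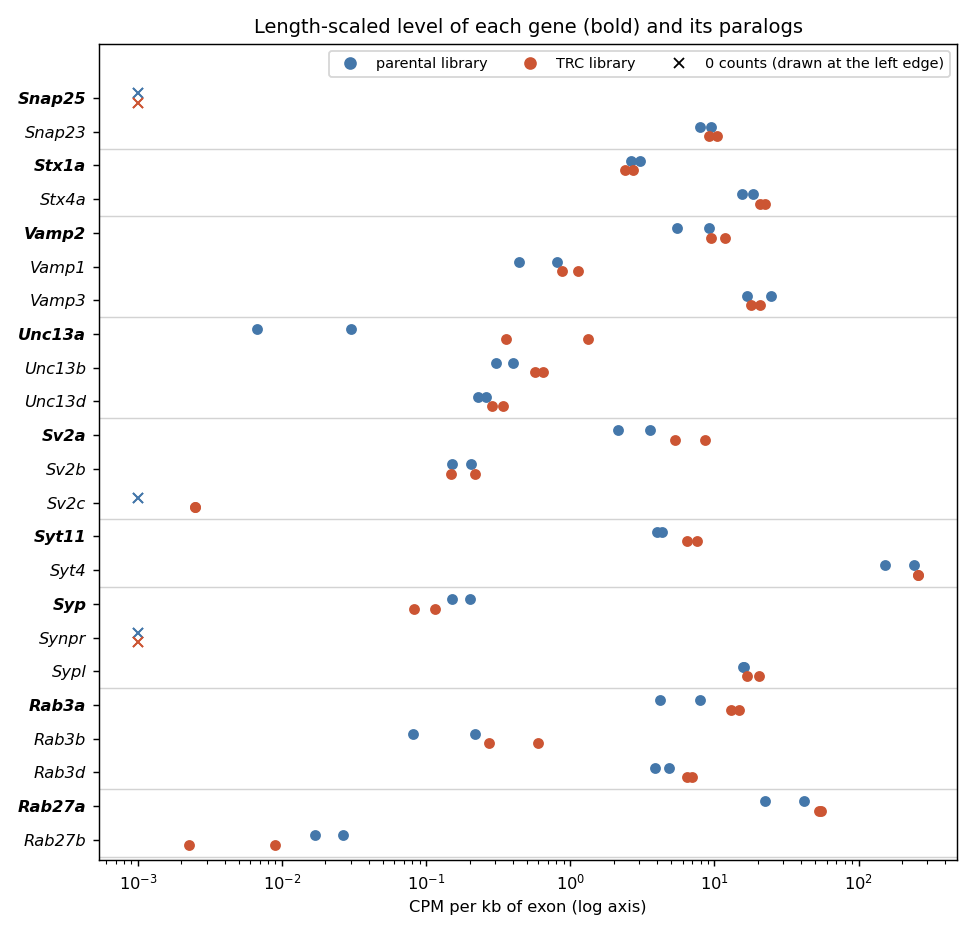
Length-scaled level (CPM per kilobase of exon, log axis) of each member (bold) and the paralogs named here in the 2 parental (blue) and 2 TRC (red) libraries, with crosses at the left edge for 0 counts. *Unc13a* lies below *Unc13b* and *Unc13d* in both parental libraries, while *Snap23*, *Stx4a*, *Vamp3*, *Syt4* and *Sypl* lie above the corresponding member in every library.

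Other genes of the pathway were taken from 8 lists by role, of which 134 genes were found and 67 passed the filter. Of the 67 genes, 6 were called higher in TRCs, or 8.96%, and 0 lower, against 8.81% and 7.05% of all genes. The median log2 fold change of the 67 was 0.22, against 0.003 for all genes. At an unadjusted p under 0.05, 13 were higher and 3 lower in edgeR's exact test, as 3220 of all 11483 genes passed that limit in either direction. The 3 lower were *Nsf*, *Mlph* and *Exoc8*, named after their values were seen, and DESeq2 called *Mlph* lower. For 35 of the 67 both TRC libraries lay above both controls, and for 9 both lay below, where the shares of all genes tested were 30.2% and 30.4%. Without control replicate 3, 3 of these pathway genes were called higher, and without control replicate 1, 1 was called lower.

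The genes called higher were spread over 5 of the 8 lists. Among them, of the genes of priming and SNARE regulation, was *Stxbp2*. *Stxbp2*, the form of blood and epithelial cells, was at 105 and 68.9 CPM in the controls and 160 and 145 CPM in the TRCs (log2 fold change 0.81, edgeR FDR = 0.0155). Its call was lost without control replicate 3 (FDR = 0.299), without TRC replicate 1 (FDR = 0.185), without TRC replicate 3 (FDR = 0.0722) and in the quasi-likelihood test (FDR = 0.0621).

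Of the 10 tested genes of vesicle endocytosis, *Dnm1* was called. It encodes the dynamin of nerve terminals, which cuts vesicles from the membrane. It rose from 22.1 and 13.3 CPM to 49.0 and 53.4 CPM, a log2 fold change of 1.53 (SE 0.29 from DESeq2, edgeR FDR = 6.59e-06). Among 2 tested granule genes *Pam*, the peptide amidation enzyme, rose from 38.0 and 43.0 CPM to 82.0 and 89.1 CPM, a log2 fold change of 1.08 (edgeR FDR = 5.91e-05). *Dnm1* and *Pam* were called in each of the 4 fits with 1 library left out. Of 9 tested vesicle membrane genes *Scamp1*, a secretory carrier protein gene, was at 159 and 135 CPM in the controls and 240 and 300 CPM in the TRCs (log2 fold change 0.88, edgeR FDR = 0.00350). The *Scamp1* call was lost without control replicate 3 (FDR = 0.106) and without TRC replicate 3 (FDR = 0.110).

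Among the 11 tested RAB3 and RAB27 partners, *Myo5a*, the motor that RAB27A and melanophilin attach to melanosomes, was at 683 and 734 CPM in the controls and 1398 and 1127 CPM in the TRCs. Its log2 fold change was 0.83 (edgeR FDR = 0.00558), and the call was lost without control replicate 1 (FDR = 0.0660), control replicate 3 (FDR = 0.0529) and TRC replicate 1 (FDR = 0.160), and in the quasi-likelihood test (FDR = 0.0552). *Mlph*, the linker of the same complex, was at 521 and 555 CPM in the controls and 351 and 405 CPM in the TRCs (log2 fold change −0.51, edgeR FDR = 0.118). The 3 genes of this complex thus did not share 1 direction of their values. Of 11 other SNAREs, 9 exocyst subunits and 2 other synaptotagmins tested, none was called by edgeR's exact or quasi-likelihood test or by DESeq2. Their median log2 fold changes were 0.34, 0.001 and 0.44. At an unadjusted p under 0.05 in the exact test, 1 of the SNAREs and 1 of the synaptotagmins were higher and 1 exocyst subunit, *Exoc8*, was lower.

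**Figure D4:**
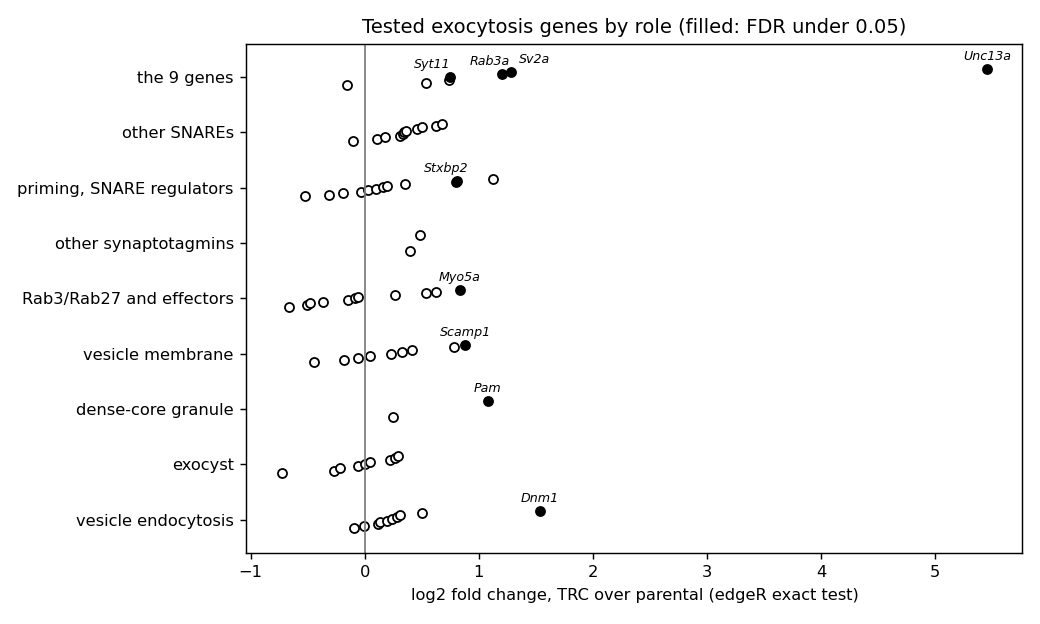
Log2 fold changes (horizontal axis, TRC over parental, edgeR exact test) of the 7 tested members and other tested genes described here, 1 circle per gene in rows by role, with filled and named circles at FDR under 0.05. *Unc13a* lies apart at 5.46, and filled circles of other genes run from 0.81 for *Stxbp2* to 1.53 for *Dnm1*.

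The genes most like the 2 members of lowest FDR were found by the Euclidean distance between log2 of CPM plus 0.5, centred on the mean of each gene over the 4 libraries. Nearest to *Unc13a* were *Rgs11* at a distance of 0.121, *Epm2a* at 0.357 and *Pdk1* at 0.533. Their order over the libraries follows from this choice, with 5.53 and 20.7 CPM in TRC replicates 1 and 3 for *Rgs11* and 155 and 436 CPM for *Pdk1*. Nearest to *Sv2a* were *Klhdc8b* at 0.0726 and *Oas1c* at 0.0872, followed by *Atp2b4*. These distances rest on 4 libraries.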

How the data were processed

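The authors prepared stranded libraries of polyA RNA from 2 parental and 2 TRC samples and sequenced them in single-end format. By the study's methods and the submitters' processing notes, reads were trimmed with Trimmomatic 0.35, aligned to GRCm38 with TopHat2 2.1.0 and counted with htseq-count. The strand setting is not given in the sources used here. What the authors deposited are unnormalized counts for each Ensembl gene. Alignments that were not unique, 15.2% to 25.2% per library, were assigned to no gene, and a further 3.77% to 5.12% were in no feature or ambiguous.

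Groups and replicate numbers came from the sample labels. Following the study, genes were removed when 3 or more of the 4 libraries were below 1 CPM, which left 11483 genes. They were scaled with TMM factors and compared with edgeR 4.0.16's exact test with tagwise dispersions (R 4.3.3), adjusted over all genes tested. CPM values are counts over TMM-scaled library size. Standard errors and intervals came from DESeq2 1.42.0. Symbols, positions and exon lengths came from GENCODE M21 (GRCm38), and start regions from RefSeq. Of 137 further genes listed by role, 134 were matched. The tests were tested on simulated data.

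The 9 members and the lists were chosen with earlier results of these data known. Named genes are the members, their paralogs in fixed pairs, up to 3 called genes per list and direction with the smallest FDR, and the 3 genes nearest in pattern to each of the 2 members of lowest FDR. Some genes under this rule are not reported here. Exceptions are marker genes, genes overlapping a member, genes at 0 counts, SNAREs of higher level than a paralog, granule genes of low counts and the genes said to be named after their values were seen. Alternatives were other filters, scalings, tests and prior counts, a replicate block, and each library left out. Plots were drawn with matplotlib 3.10.9.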

Additional observations from a re-analysis of the deposited data

How the results depend on the processing

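With the members at 4 called higher and 0 lower, and 1822 genes called in all, other filters and scalings kept each count within 1.5 times, with 3 or 4 members called higher. The quasi-likelihood test called 1054 genes, 1 member, *Unc13a*, and 4 other exocytosis genes in place of 6. With the replicate block it called 785 genes, 2 members (*Unc13a* and *Sv2a*) and 3 other exocytosis genes, with *Scamp1* at an FDR of 0.0530. Replicate numbers are not stated to mark a shared preparation, and across genes the shifts of equally numbered libraries around their group mean had r = 0.0267. DESeq2's Wald test called 1 other exocytosis gene lower in place of 0. With each library left out, between 783 and 1946 genes, 1 and 5 members and 3 and 7 other exocytosis genes were called (members and exocytosis genes higher, all genes in either direction), and between 0 and 1 other exocytosis genes lower. In those fits the lone library is taken to vary like the pair of the other group. The cause of these losses was not tested. Of the values of named genes under the alternatives, 245 stayed on their side of the threshold, 28 lost and 2 gained the call, and 0 changed direction as called values. The 245 include values of genes called in neither fit. They also include those under the other prior count, which alters fold changes only and could not change a call. Below the floor of 3 counts, as for *Snap25*, a difference was not detectable at this depth, and the level of *Unc13a* in control replicate 3 lay at that floor.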

Other observations

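Dense-core granules are the vesicles that store peptides in endocrine cells. Of 12 genes of this list, *Chga*, *Scg3*, *Vgf* and *Pcsk1* had 0 counts in all 4 libraries. *Chgb*, *Scg2*, *Scg5*, *Pcsk2*, *Ptprn* and *Ptprn2* had between 0 and 20 counts per library. *Cpe* and *Pam*, which encode enzymes of peptide maturation, passed the filter. *Cpe* was at 714 and 521 CPM in the control libraries and 813 and 650 CPM in the TRC libraries. Of the priming and SNARE regulators, 5 of 28 had 0 counts throughout, among them *Cadps*, the factor that primes dense-core granules, and *Cplx2*, a complexin that binds SNARE complexes in nerve terminals. Over all genes, 19608 of 39179 had 0 counts in all 4 libraries, a larger share than in either list. The genes named here, other than *Pam*, were named after their values were seen. A count of 0 allows up to 3 counts per library.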
